A study of Saccharomyces cerevisiae with 2 samples.

Results

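The genes described here belong to 7 multicopy families that lie mostly near the chromosome ends of Saccharomyces cerevisiae: COS, PAU, YRF1, IMA, MAL, FLO and the minor HXT genes. Members were taken by name alone (COS, PAU, MAL and FLO followed by a number, YRF1-, IMA with 1 digit, and HXT8 to HXT17), which gave 60 of the 6142 named genes in the deposited table. They comprised 12 COS, 17 PAU, 8 YRF1, 3 IMA, 6 MAL, 5 FLO and 9 HXT genes. The families themselves were selected on their log2 changes in this comparison, which were known when the names were fixed, so every count of members below is a description. In the yeast genome annotation used for gene order and sequence (RefSeq, assembly R64), 71 genes carry such a name, and the other 11 were not used here. Those 11 are FLO8, HXT16, IMA3, IMA4, PAU1, PAU14, PAU16, PAU18, PAU19, PAU21 and PAU22, and 7 of the 11 hold no stretch of 50 bases that is unique in the genome.

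The study compared 1 library of cells exposed to 2.5 mM paraquat for 8 h in YPD, a glucose-rich medium, with 1 library of untreated cells. Paraquat is a redox-cycling herbicide that makes superoxide inside cells. Both libraries came from mid-log cultures of BY4741, a haploid MATa laboratory strain of the S288C lineage. How long the untreated culture was kept before harvest is not stated, so any effect of the extra time cannot be told apart from that of paraquat. With 1 library a group there is no replicate check and no test, and a difference may reflect only these cultures.

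The libraries held 165264107 reads on named genes in paraquat and 164909400 reads in untreated cells, so members with few reads limit the precision here, not the libraries. The a-cell receptor gene STE2 stood at 84794 normalized reads in paraquat and 105963 normalized reads in untreated cells, where the alpha-cell receptor gene STE3 stood at 1175 in paraquat and 719 in untreated cells. This is the order of a MATa strain. Values are normalized reads, in which each library's read counts are divided by 1 factor. Each fold change comes with a 95% interval, an exact binomial (Clopper-Pearson) interval of how the reads split between the libraries. It covers counting error only, and reads copied by PCR are not independent molecules. The members took 0.0905% of the reads in paraquat and 0.0592% of the reads in untreated cells.

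Yeast chromosome ends carry families of similar genes that recombine with one another, and the Sir proteins keep many genes there at low levels. Several of the families encode proteins of the cell surface or of sugar uptake and breakdown: the minor HXT genes encode hexose or polyol carriers, MAL genes encode a maltose permease, maltase and activator, IMA genes encode isomaltases, and FLO genes encode adhesins. PAU genes encode small cell wall mannoproteins known for their rise without oxygen, COS genes encode endosomal membrane proteins that help send surface proteins for breakdown, and YRF1 genes encode the helicase of the subtelomeric Y' elements.

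Near-identical sequence is what sets these genes apart from most others, and it decides how far a read can be given to 1 gene. A stretch of coding sequence in 3 HXT genes and a stretch in both maltase genes are shown as examples, 5' to 3' on the coding strand, from RefSeq assembly R64. The HXT lines are bases 451 to 540 of HXT11 and HXT9 and bases 121 to 210 of HXT12, and the MAL lines are bases 181 to 270 of each gene. Capitals mark the positions at which the sequences of a set are not all the same.
HXT11: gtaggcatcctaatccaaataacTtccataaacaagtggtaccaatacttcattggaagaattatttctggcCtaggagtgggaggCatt
HXT9: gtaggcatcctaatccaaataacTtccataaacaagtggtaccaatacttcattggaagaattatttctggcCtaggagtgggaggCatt
HXT12: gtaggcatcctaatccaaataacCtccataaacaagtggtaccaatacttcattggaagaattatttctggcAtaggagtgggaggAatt
MAL32: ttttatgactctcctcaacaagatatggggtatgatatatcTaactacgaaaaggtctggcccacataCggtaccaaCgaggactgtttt
MAL12: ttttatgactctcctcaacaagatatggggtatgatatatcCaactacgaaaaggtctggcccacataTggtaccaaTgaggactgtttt

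HXT11 and HXT9 did not differ in these 90 bases, and HXT12 differed from them at 3 positions. MAL12 differed from MAL32 at 3 positions, and over the whole gene they shared 99.5% of 1755 bases. HXT11 shared 97.2% of 1702 aligned bases with HXT9 and 97.0% of 1374 aligned bases with HXT12. Joining genes at 95% identity or more over at least 80% of the longer gene gave 35 of the 60 members a near-identical copy: 12 PAU, 8 YRF1, 6 COS, 6 HXT, 2 MAL and 1 IMA gene, and no FLO gene. COS2 and COS3 were the same in all 1140 bases. Only 11 members (18.3%) consisted wholly of 50-base windows found once in the genome, against 92.5% of 5917 genes matched to the annotation, and 10 members had no such window. How the authors' counting treated reads that match several copies is not given in the sources used here.

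A gene was called higher or lower where it changed at least 2-fold and its mean over both libraries was at least 50 normalized reads. Of the 60 members, 52 had that mean: all COS, IMA, MAL, FLO and HXT genes, 13 of 17 PAU genes and 4 of 8 YRF1 genes. COS12, COS4, MAL33 and HXT11 were called higher and 0 members were called lower. This is 4 of 52 members, or 7.69%, where 3.08% of the 5973 genes with that mean were called higher and 1.52% were called lower. Calls were more common among genes with few reads, and 34 of the 60 members fell in the lowest of 10 classes of mean abundance, where 12.1% of 445 genes with that mean were called higher. Weighted to the abundance classes of the 52 members, the share of all genes called was 7.79% higher and 2.12% lower, so the members' share called higher was that of genes of like abundance. At 1.5-fold, 15 of 52 members (28.8%) were higher and 0 were lower, against 7.75% and 5.88% of all genes and a class-weighted 19.7% and 5.39%. The 15 comprised 6 HXT, 4 COS, 3 MAL and 2 PAU genes, with near-identical copies counted 1 by 1. With copies summed, HXT9, HXT11 and HXT12 (1.96-fold) and MAL12 and MAL32 (1.78-fold) stayed past 1.5-fold. COS1 to COS4 (1.49-fold), HXT13 with HXT17 (1.39-fold) and the PAU group that holds PAU12 (1.01-fold) did not. No class-weighted share was computed for summed copies. Scaling by total reads in place of the deposited factors raised every log2 change by 0.26, and 10 members were then called higher, where 5.22% of all genes were. That share is not weighted by abundance class, and the 10 again count near-identical copies 1 by 1, so no excess over genes of like abundance is shown. Changes given below are on the deposited scaling, and log2 changes between -0.26 and 0 turn positive under the other.

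**Figure D1:**
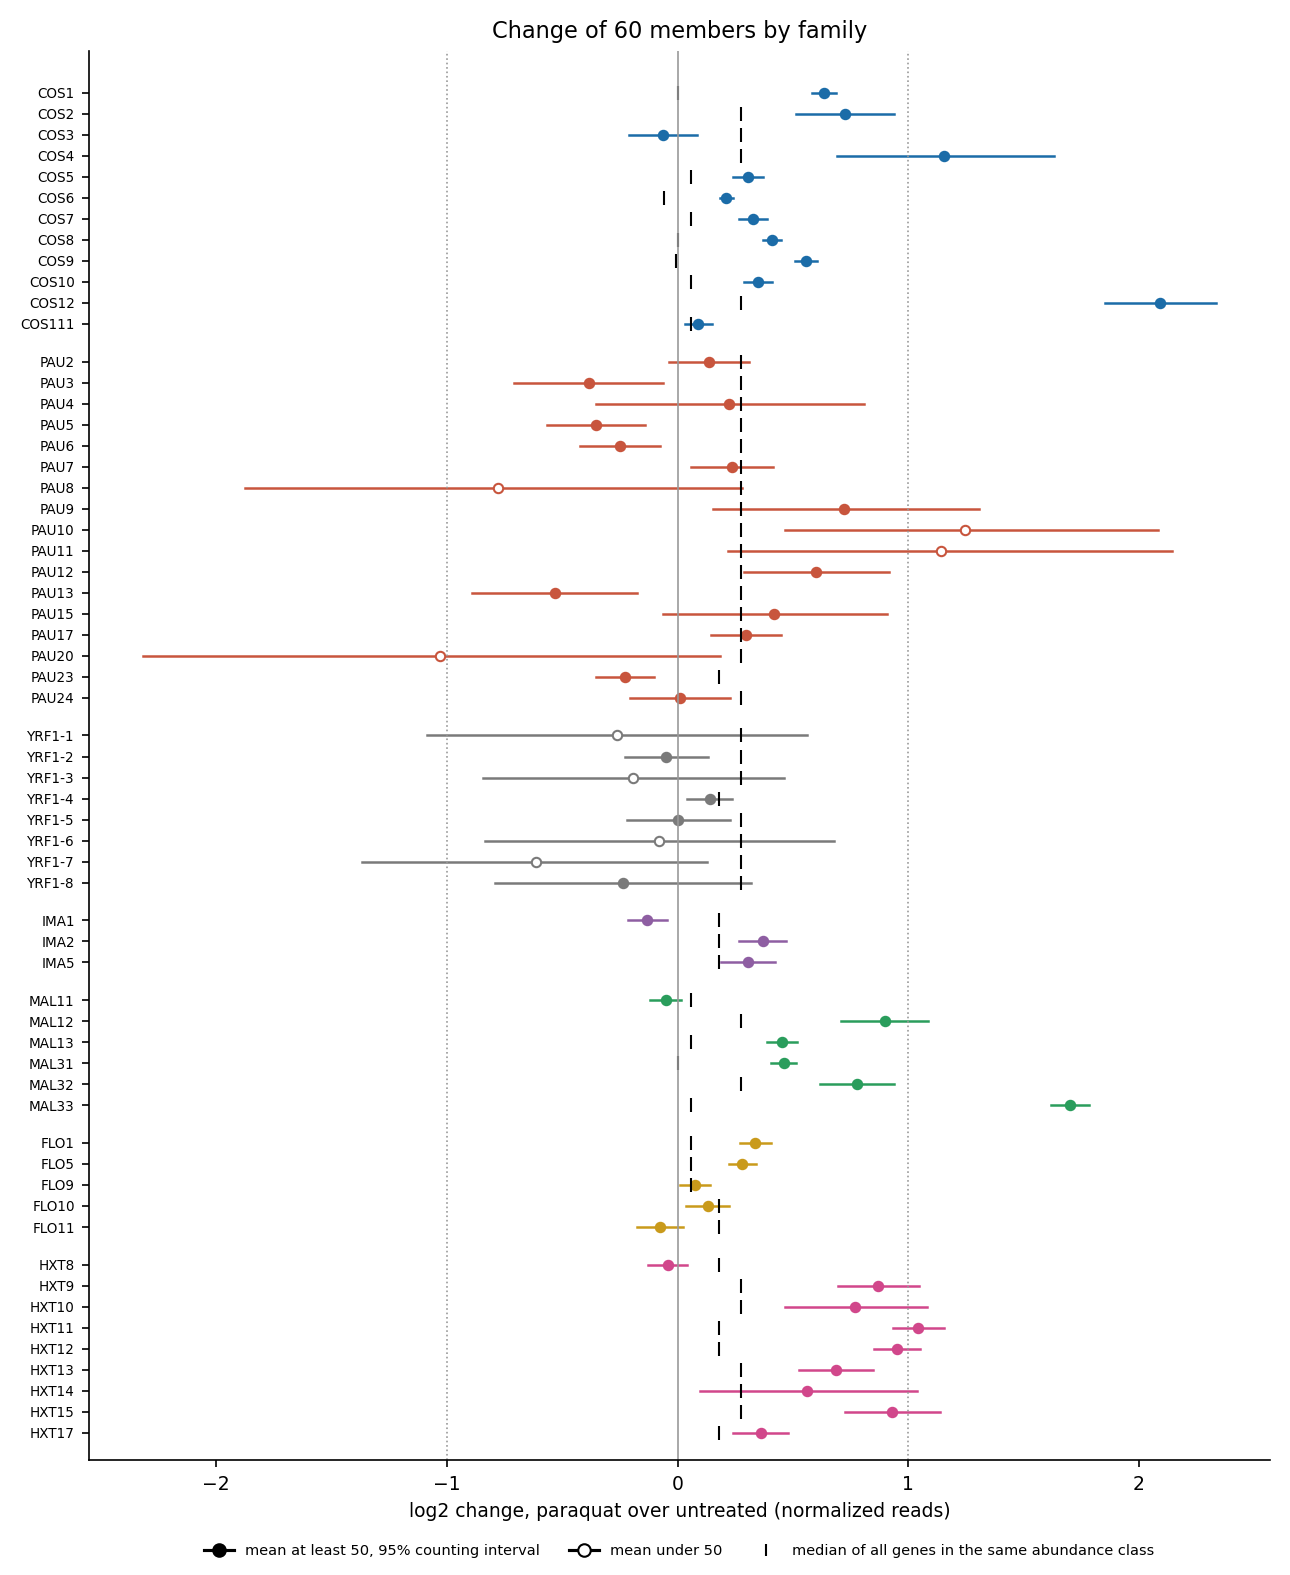
The log2 change of each of the 60 members (paraquat over untreated, x axis) by family, with bars for the 95% counting interval, open points for a mean under 50 normalized reads and a tick at the median of all genes in the same abundance class. COS12 at 2.09 and MAL33 at 1.70 stand furthest right, and all 8 YRF1 points lie left of their class median.

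The members' changes, plotted by family, were also set against the median of all named genes in the same abundance class, which ran from 0.27 on the log2 scale in the lowest class to -0.31 in the highest. Of the 52 members, 33 lay above that median, where 50% of all genes do by construction. Without the minimum mean, 35 of 60 lay above it, and the families differed: 11 of 12 COS, 8 of 9 HXT, 5 of 6 MAL, 3 of 5 FLO, 2 of 3 IMA, 6 of 17 PAU and 0 of 8 YRF1 genes. With near-identical copies summed to 1 unit each, 24 of 35 units lay above it, and 2 units, COS12 and MAL33, were called higher. In the authors' deposited table, COS12 had an unadjusted p of 0.0279 and MAL33 of 0.0238, each from 1 library a group. They were the only 2 members under 0.05 there, where 130 of 6142 genes (2.12%) were under 0.05, and the smallest adjusted p of a member in the authors' deposited table was 0.999.

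The minor hexose transporter genes as a family had 10672 normalized reads in paraquat and 7108 in untreated cells, a log2 change of 0.59 with an interval of 0.54 to 0.63. HXT11, a carrier linked to drug resistance under the regulators Pdr1 and Pdr3, had 2077 normalized reads in paraquat and 1007 in untreated cells, or 2.06-fold (interval 1.91 to 2.23). HXT9, its closest relative and also tied to Pdr1 and Pdr3, had 766 normalized reads in paraquat and 419 in untreated cells, or 1.83-fold (1.62 to 2.07). HXT12 had 2436 normalized reads in paraquat and 1262 in untreated cells, or 1.93-fold (1.80 to 2.07). Since reads of these copies could be shared, their sum is the firmer value: 5279 normalized reads in paraquat and 2688 in untreated cells, 1.96-fold (1.87 to 2.06), just under the 2-fold line.

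HXT13, HXT15 and HXT17 encode carriers that also take polyols such as mannitol and sorbitol. HXT15 had 583 normalized reads in paraquat and 306 in untreated cells, or 1.91-fold (1.65 to 2.20), and its 99.9% identical copy HXT16 was not used here. HXT13 and HXT17, 96.5% identical, together had 2222 normalized reads in paraquat and 1594 in untreated cells, or 1.39-fold (1.31 to 1.49). The 3 members of the family without a near-identical copy were the hexose carrier genes HXT8, HXT10 and HXT14. HXT10 had 250 normalized reads in paraquat and 147 in untreated cells (1.71-fold), and HXT14 had 98.6 in paraquat and 66.8 in untreated cells (1.48-fold, 1.07 to 2.06). HXT8 had 2240 normalized reads in paraquat and 2306 in untreated cells (0.971-fold). HXT8 held 32.4% of the family's reads in untreated cells, and with the copies left out the family's log2 change was 0.039, against 0.59 with them. Per kilobase the family's levels ran from 60.8 to 1773 normalized reads in paraquat and from 41.2 to 1349 in untreated cells.

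The upstream sequence of HXT11 and HXT9 is shown because these copies lie on different chromosomes, XV and X, and both carry the same letters of a pleiotropic drug response element (the site of Pdr1 and Pdr3) at the same distance. The lines run from 380 to 281 bases before the start codon, 5' to 3' on the coding strand, from RefSeq assembly R64, and capitals mark the variant element TCCGTGGA.
HXT11: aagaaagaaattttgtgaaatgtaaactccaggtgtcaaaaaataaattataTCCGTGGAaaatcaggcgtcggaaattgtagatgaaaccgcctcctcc
HXT9: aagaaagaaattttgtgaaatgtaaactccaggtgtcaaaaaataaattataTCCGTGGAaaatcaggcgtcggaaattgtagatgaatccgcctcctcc

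These stretches differed at 1 base, and the element stood 328 to 321 bases before the start in both. Among 6018 windows of 500 bases before a start, searched on both strands, 1.06% held TCCGTGGA, and of the members HXT9, HXT11 and IMA5 did. HXT12 had none in its window, and neither did the other HXT members. The form TCCGCGGA was in 0.648% of windows and in those of PAU3, PAU4, PAU8 and IMA2. The motifs were picked with the members' values known, and a match of letters is not a measured site.

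The other hexose transporter and sensor genes, a list of 10 with the main carriers HXT1 to HXT7, had a median log2 change of 0.20, with 2 called higher and 0 lower. HXT1, the low-affinity carrier of high glucose, had 318779 normalized reads in paraquat and 109804 in untreated cells, or 2.90-fold. HXT4 had 37545 normalized reads in paraquat and 14448 in untreated cells, or 2.60-fold. HXT2 was the lowest of the list, at 0.699-fold, and the other 9 genes were above 0 on the log2 scale. In a list of 10 regulators of glucose signalling and repression together with PDR1 and PDR3, 3 of 12 genes were called higher and 0 lower: the repressor genes MIG2 (3.12-fold) and MIG3 (2.05-fold) and the co-repressor gene MTH1 (2.28-fold). The list as a whole did not rise: its median log2 change was 0.05, with 7 genes above 0. HXK2 (0.743-fold) and REG1 (0.859-fold) were its lowest. Of all genes with the minimum mean, 3.08% were called higher, a share not weighted by abundance class. PDR1 and PDR3, whose products are tied to HXT9 and HXT11, were both at 1.05-fold.

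**Figure D2:**
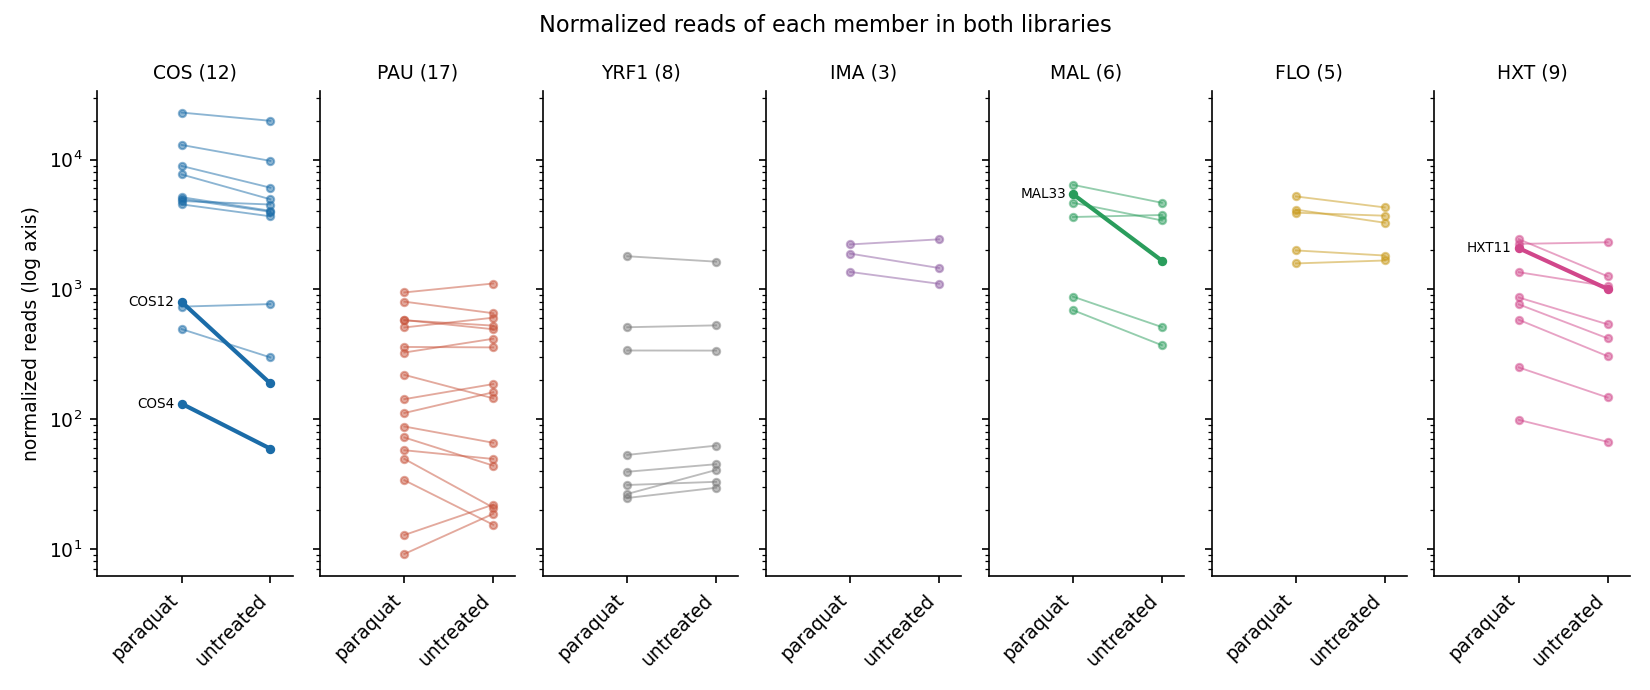
Normalized reads (log y axis) of each member in the paraquat and the untreated library, 1 panel a family with the number of members in brackets and 1 line a gene. Thick named lines are COS12, COS4, MAL33 and HXT11, and the MAL and HXT panels hold mostly lines that are higher at the paraquat end.

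The maltose genes sit as a permease, a maltase and an activator gene in a cluster at each of 2 chromosome ends in this genome, VII right (MAL11, MAL12 and MAL13) and II right (MAL31, MAL32 and MAL33). The family had 21635 normalized reads in paraquat and 14341 in untreated cells, or 1.51-fold (1.48 to 1.54). MAL33, a zinc-cluster activator, had 5412 normalized reads in paraquat and 1667 in untreated cells, or 3.25-fold (3.07 to 3.44). Without MAL33 the family's log2 change was 0.36, against 0.59 with it, so this gene carried much of the family's difference. The read counts behind it were 5927 in paraquat and 1522 in untreated cells, and 94.3% of its 50-base windows were unique.

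The other activator gene, MAL13, had 4650 normalized reads in paraquat and 3400 in untreated cells, or 1.37-fold (1.31 to 1.43), and shared 71.9% of aligned bases with MAL33. YPR196W, a putative activator of the same kind and the closest relative at 75.7%, was 0.18 higher on the log2 scale. ZNF1, a zinc-cluster regulator of respiratory growth with 71.9% identity to MAL33, had 1865 normalized reads in paraquat and 619 in untreated cells, or 3.01-fold (2.74 to 3.31), and it was singled out after its values were seen. The maltase genes MAL12 and MAL32 had 691 and 878 normalized reads in paraquat, against 371 and 513 in untreated cells, and their sum was 1.78-fold higher (1.63 to 1.93). Only 16.4% of the 50-base windows of MAL12 and 15.9% of those of MAL32 were unique, so their separate values cannot be assigned to 1 gene. The permease genes, made up wholly of unique windows, differed from each other. MAL31 had 6391 normalized reads in paraquat and 4649 in untreated cells (1.37-fold), and MAL11 had 3612 in paraquat and 3742 in untreated cells (0.965-fold). The activator genes and the permease genes of the 2 clusters thus did not share 1 fold change.

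The isomaltase genes had 5467 normalized reads in paraquat and 4995 in untreated cells, or 1.09-fold (1.05 to 1.14). IMA1, the major isomaltase, had 2219 normalized reads in paraquat and 2430 in untreated cells, or 0.913-fold. IMA2 had 1886 normalized reads in paraquat and 1461 in untreated cells, or 1.29-fold, and its copies IMA3 and IMA4 were not used here. IMA5, the most divergent isomaltase gene of the group, had 1362 normalized reads in paraquat and 1104 in untreated cells, or 1.23-fold. None of the 3 was called.

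The COS genes had 74246 normalized reads in paraquat and 58197 in untreated cells, or 1.28-fold (1.26 to 1.29). COS6 held 34.2% of the family's reads in untreated cells and had 23049 normalized reads in paraquat and 19915 in untreated cells, or 1.16-fold. COS8, COS9 and COS10 were 1.33-, 1.47- and 1.27-fold higher. Of the 12 log2 changes, 11 were above 0; the exception was COS3, which at -0.06 turned positive when scaled by total reads.

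COS12 changed most of all members. It had 802 normalized reads in paraquat and 188 in untreated cells, or 4.26-fold (3.61 to 5.04), from 878 reads in paraquat and 172 in untreated cells. All of its 50-base windows were unique and it had no near-identical copy; over 300 aligned bases it shared 72.3% with COS3. Without COS12 the family's log2 change was 0.34, against 0.35 with it, since it holds few of the family's reads. The stretch from 430 to 331 bases before its start codon is shown, from RefSeq assembly R64 and 5' to 3' on the coding strand, because it holds the letters of a site of Yap1, the regulator of the oxidant response. Capitals mark TTACTAA.
COS12: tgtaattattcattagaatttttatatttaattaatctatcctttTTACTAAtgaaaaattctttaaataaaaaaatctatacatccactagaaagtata

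The letters stood 385 to 379 bases before the start. TTACTAA or TTAGTAA, searched on both strands, was in 11.8% of the 6018 windows of 500 bases, and among the members in those of COS12 and IMA1 alone, which is 3.33%. IMA1 was 0.913-fold on the deposited scaling and had a log2 change of 0.13 when scaled by total reads. Whether both genes with the letters were higher thus depends on the scaling. The short letters CCCCT of the stress regulators Msn2 and Msn4 were in 34.1% of windows and in those of 25 members (41.7%). These included 9 COS genes and 9 PAU genes, but not COS12. In 8 of the 12 COS genes, COS1 to COS8, they lay 29 to 25 bases before the start. COS1 to COS4 are near-identical copies, as are COS5 and COS7. The windows are therefore not independent, and no excess over all windows is shown.

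COS1 to COS4 are near-identical and must be read together. COS4 had 131 normalized reads in paraquat and 59.1 in untreated cells, or 2.22-fold (1.62 to 3.10), from 144 reads in paraquat and 54 in untreated cells. COS1 had 7689 normalized reads in paraquat and 4948 in untreated cells, or 1.55-fold. COS2 had 494 normalized reads in paraquat and 299 in untreated cells (1.65-fold), while its identical copy COS3 had 736 in paraquat and 770 in untreated cells (0.956-fold, 0.863 to 1.06). These identical coding sequences were thus listed with unequal changes, and their values cannot be assigned to 1 gene from the coding sequence. Summed, the group had 9050 normalized reads in paraquat and 6076 in untreated cells, 1.49-fold (1.44 to 1.54), so the call of COS4 does not extend to its group. COS5 and COS7, 95.6% identical, were 1.25-fold higher together (1.21 to 1.28).

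COS111 shares only the name. It had 0 alignments to another COS gene where COS12 had 10, it is the 103rd gene from its chromosome end, and it is known for resistance to the antifungal ciclopirox. It had 4795 normalized reads in paraquat and 4507 in untreated cells, or 1.06-fold (1.02 to 1.11). Without it the COS sum was 1.29-fold higher (1.28 to 1.31).

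The PAU genes together had 4897 normalized reads in paraquat and 4887 in untreated cells, a log2 change of 0.0029 with an interval of -0.05 to 0.06. Single genes spread in both directions around this. PAU12 had 219 normalized reads in paraquat and 145 in untreated cells (1.52-fold), and PAU9 had 72.1 in paraquat and 43.8 in untreated cells (1.65-fold, 1.11 to 2.47). PAU9, of 129 bases, had 0 unique 50-base windows, so its value cannot be assigned to it alone, although the rule for copies gave it none. PAU13 had 111 normalized reads in paraquat and 161 in untreated cells (0.692-fold). The largest ratios rested on few reads: PAU10 had 54 reads in paraquat and 19 in untreated cells (2.37-fold, 1.38 to 4.23), and PAU11 had 37 in paraquat and 14 in untreated cells (2.20-fold, 1.16 to 4.41). PAU20 had 10 reads in paraquat and 17 in untreated cells, 2.04-fold lower with an interval that includes no change. These 3 genes and PAU8 were under the minimum mean.

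The 10 PAU genes of the largest near-identical group, PAU2, PAU4, PAU6, PAU8, PAU10, PAU11, PAU12, PAU13, PAU20 and PAU24, summed to 1939 normalized reads in paraquat and 1919 in untreated cells, 1.01-fold (0.948 to 1.08). PAU3 and PAU15 summed to 230 normalized reads in paraquat and 252 in untreated cells, 0.914-fold (0.761 to 1.10). Of the better resolved genes, PAU23 had 947 normalized reads in paraquat and 1109 in untreated cells (0.854-fold), and PAU17 had 804 in paraquat and 655 in untreated cells (1.23-fold). PAU7 had 580 normalized reads in paraquat and 493 in untreated cells (1.18-fold). PAU5 had 326 normalized reads in paraquat and 416 in untreated cells, or 0.783-fold. The letters TCGTATA of Upc2, the sterol regulator active without oxygen, were in the windows of 12 members (20%), 7 of them PAU genes, against 6.98% of all windows. The 12 include near-identical copies counted separately: PAU2, PAU10, PAU12 and PAU24, and likewise YRF1-3, YRF1-6 and YRF1-7. In PAU12 and PAU24, and in these YRF1 genes, the letters lay at the same distance from the start. The windows are therefore not independent, and no excess over all windows is shown.

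The TIR and DAN genes encode other cell wall mannoproteins that, like PAU genes, are known for their rise without oxygen. Of 6 measured, TIR1, TIR3 and DAN1 were called lower and 0 were called higher, with a median log2 change of -0.96. TIR1 had 2067 normalized reads in paraquat and 27842 in untreated cells, 13.5-fold lower (12.9 to 14.1). DAN1 had 200 normalized reads in paraquat and 917 in untreated cells, 4.58-fold lower, and TIR3 was 2.90-fold lower. The other members went both ways: TIR4 was at 0.767-fold, TIR2 at 1.06-fold and DAN4 at 1.13-fold (1.08 to 1.19). ROX1, the heme-dependent repressor of genes for growth without oxygen, had 32465 normalized reads in paraquat and 15659 in untreated cells, 2.07-fold higher, and it was the 1 gene called among 7 regulators of that response.

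The flocculin genes had 16799 normalized reads in paraquat and 14733 in untreated cells, or 1.14-fold (1.12 to 1.17), and none was called. FLO1, FLO5 and FLO9 encode lectins that bind cells to each other: FLO5 had 5202 normalized reads in paraquat and 4283 in untreated cells (1.21-fold), and FLO1 had 4118 in paraquat and 3262 in untreated cells (1.26-fold). FLO9 had 3898 normalized reads in paraquat and 3696 in untreated cells (1.05-fold). FLO10 had 1995 normalized reads in paraquat and 1823 in untreated cells (1.09-fold). FLO11, the adhesin of filaments and biofilms, had 1584 normalized reads in paraquat and 1669 in untreated cells (0.949-fold, 0.886 to 1.02). FLO8, which encodes an activator of these genes and is annotated as a pseudogene in this assembly, was not used here. Of 10 other regulators of flocculin genes, only NRG1, a glucose-dependent repressor, was called, at 2.21-fold higher. Most of that list went the other way, with a median log2 change of -0.31 and 2 genes above 0. TEC1 (0.552-fold) and TPK2 (0.586-fold) were its lowest. Of 4 other adhesin genes, the agglutinin genes AGA1 and AGA2 were called lower, 2.41- and 2.54-fold.

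The YRF1 genes had 2823 normalized reads in paraquat and 2710 in untreated cells, or 1.04-fold (0.987 to 1.10). YRF1-4 held 60.3% of the untreated reads, with 1800 normalized reads in paraquat and 1635 in untreated cells, or 1.10-fold (1.03 to 1.18), and its annotated interval overlaps another gene. YRF1-2, which also overlaps other genes, had 510 normalized reads in paraquat and 528 in untreated cells, and YRF1-5 had 338 in paraquat and 337 in untreated cells. The others had at most 58 reads in a library, and the intervals of all of them include no change; the folds are of normalized reads, not of these raw reads. YRF1-8 had 58 reads in paraquat and 57 in untreated cells (0.849-fold), and YRF1-3 had 43 in paraquat and 41 in untreated cells (0.875-fold). YRF1-6 had 34 reads in paraquat and 30 in untreated cells (0.945-fold), and YRF1-1 had 27 in paraquat and 27 in untreated cells (0.834-fold). YRF1-7, the lowest ratio of the family, had 29 reads in paraquat and 37 in untreated cells (0.654-fold, 0.388 to 1.09). Levels per kilobase ran from 4.57 to 434 normalized reads in paraquat and from 5.48 to 394 in untreated cells, among genes that are 99.3% to 100% identical. Without YRF1-4 the sum was 0.951-fold (0.872 to 1.04). The 16 reading frames of Y' elements that lack a YRF1 name had a median log2 change of 0.15, with 0 called higher and 0 lower among the 14 with the minimum mean.

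**Figure D3:**
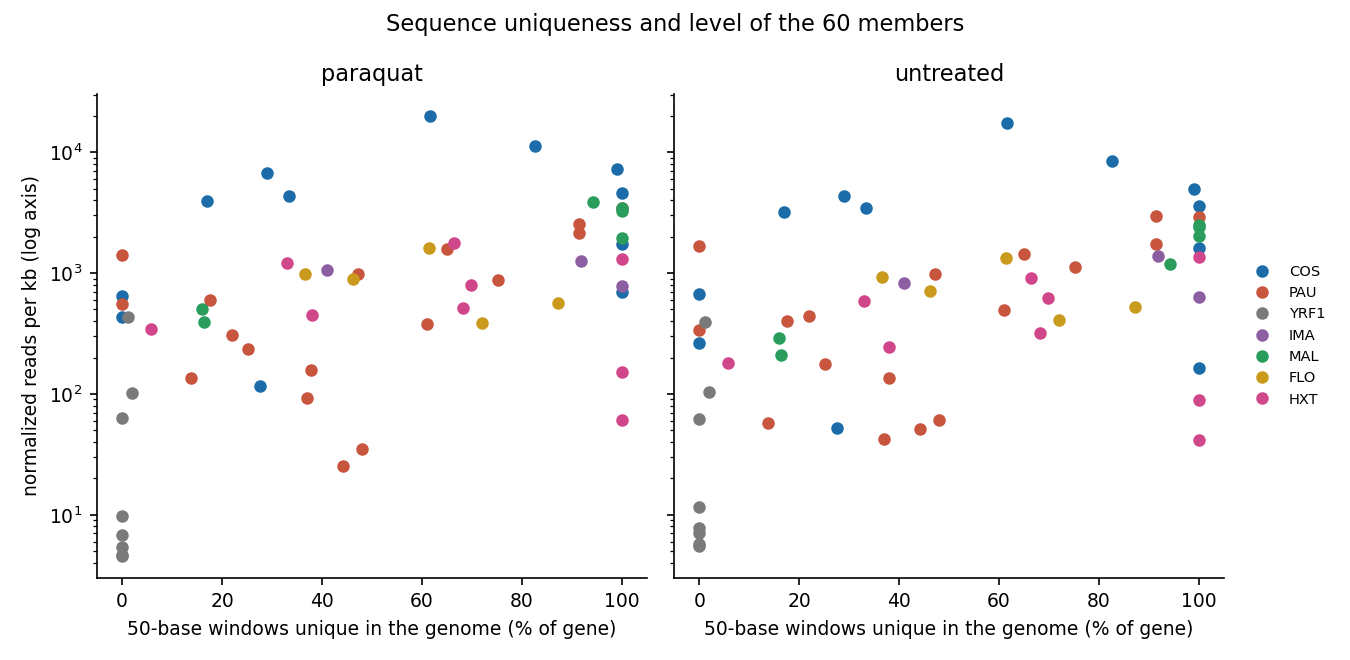
Normalized reads per kilobase (log y axis) of the 60 members against the share of each gene's 50-base windows that occur once in the genome (x axis, percent), in paraquat and in untreated cells. The lowest levels are those of YRF1 genes at 0%, while members without unique windows, such as COS2 and COS3, are higher.

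Members with a near-identical copy and those without could be compared for how they sat in their abundance class. Of the 35 with a copy 18 lay above the class median, and of the 25 without a copy 17 did. The summed log2 change was 0.46 with a copy and 0.32 without. The plot of level against unique windows shows that low levels per kilobase and few unique windows often went together, and the part of read assignment in the values was not tested.

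Of the 60 members, 48 were among the 10 outermost genes of a chromosome end and 53 among the 20 outermost. The 7 further in were COS111, PAU2, PAU5, PAU17, PAU23, HXT10 and FLO11. These 7 had a summed log2 change of 0.04, against 0.38 for the 53 outer members. COS111, which shares only the name of its family, held 49.9% of the untreated reads of the 7. Most of the rest are PAU genes, whose family log2 change was 0.0029, while HXT10 was 1.71-fold. Position and family thus cannot be told apart in this contrast. Of 219 genes among the outermost 10 that are no members and have the minimum mean, 54.8% were above their class median. Its exact binomial interval was 47.9% to 61.5%, and with members included it was 50.1% to 62.5%, beside the 50% given by construction. Such an interval takes neighbouring and related genes as independent, so it is a description and no test. Of the 219 genes, 9.59% were called higher, where 3.08% of all genes with that mean were, a share not weighted by abundance class. The median log2 change of the 219 was 0.17, or 0.05 above the class median. By order from the end, the median above the class was 0.07 for genes 1 to 5, 0.04 for genes 6 to 10, 0.03 for genes 11 to 20 and -0.0013 for genes 21 to 50.

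The chromosome ends were ranked by the median change above class of their outermost 10 genes. Among 32 ends, XV left, where HXT11 is the 13th gene, was 1st at 1.22, II right (MAL33) was 3rd at 0.45, VII left (COS12) was 4th at 0.42 and VI left (COS4) was 25th at -0.04. These medians include members; without members they were 1.22 at XV left, 0.15 at II right (5 genes), 0.28 at VII left (5 genes) and -0.08 at VI left (8 genes). COS12 is the first gene of its end, and the next 6 genes inward were all listed higher in paraquat. YGL262W had 46 reads in paraquat and 3 in untreated cells (12.8-fold, 4.11 to 64.3), YPS5, an aspartic protease gene, was 1.78-fold, YGL258W-A 2.06-fold and VEL1 1.47-fold. PAU11 and YGL260W, with 37 and 16 reads in paraquat and 14 and 7 in untreated cells, were 2.20- and 1.91-fold, and the interval of YGL260W (0.742 to 5.48) includes no change. MNT2, a mannosyltransferase gene and the next inward, had 14156 normalized reads in paraquat and 14531 in untreated cells, 0.974-fold.

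**Figure D4:**
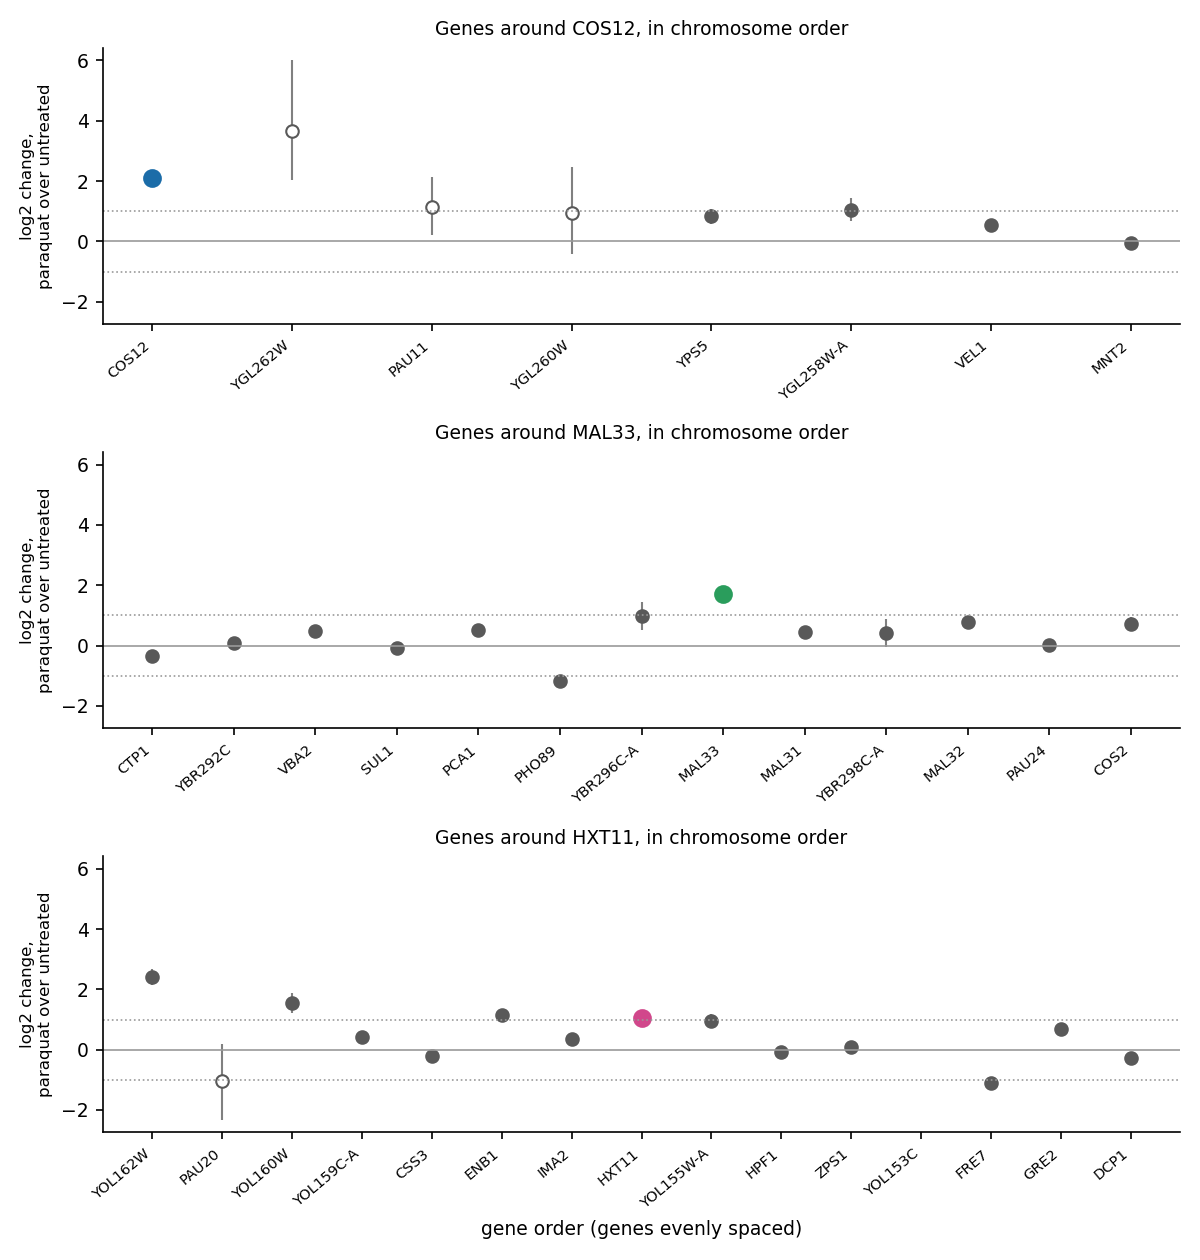
The log2 change (paraquat over untreated, y axis) of genes next to COS12, MAL33 and HXT11 in chromosome order, evenly spaced, with bars for the 95% counting interval, open points for a mean under 50 normalized reads and dotted lines at 2-fold. All 6 genes between COS12 and MNT2 lie above 0, whereas genes called lower stand near MAL33 (PHO89) and HXT11 (FRE7).

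Around MAL33 the changes were mixed, as the plot of neighbouring genes shows. Toward the end lay MAL31 (1.37-fold), MAL32 (1.71-fold), PAU24 (1.01-fold) and COS2 (1.65-fold). On the inner side, YBR296C-A had 124 normalized reads in paraquat and 63.5 in untreated cells, while PHO89, a phosphate transporter gene, was 2.28-fold lower. Around HXT11, IMA2 was 1.29-fold and YOL155W-A was 1.95-fold, ENB1, an iron-siderophore transporter gene, was 2.20-fold, and FRE7, a metal reductase gene, was 2.14-fold lower. YOL162W and YOL160W, further toward that end, were 5.26- and 2.91-fold higher. Around COS4, YFL064C on the outer side had 130 normalized reads in paraquat and 159 in untreated cells, while DDI3, a cyanamide hydratase gene on the inner side, had 576 in paraquat and 357 in untreated cells. Further inward, SNO3 and SNZ3, of the vitamin B6 families, were 1.18- and 0.938-fold, and the thiamine synthesis gene THI5 was 2.05-fold. Unique 50-base windows made up only 7.95% to 22.9% of YFL064C, DDI3, SNO3, SNZ3 and THI5, and 0% of YOL155W-A. The values of these neighbours thus cannot be firmly assigned to this place in the genome.

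Genes for the machinery of the chromosome ends showed no call. Of 28 genes of silencing and telomere chromatin, 0 were called higher and 0 lower, and their median log2 change was -0.13, with 9 above 0. SIR2, the silencing deacetylase, had 4332 normalized reads in paraquat and 6834 in untreated cells, 1.58-fold lower and the lowest of the list. SIR3 was 1.18-fold lower, SIR4 was 1.10-fold higher and SIR1 1.03-fold higher. Scaled by total reads, SIR3 and the median of this list turned positive. Of 12 genes of telomerase and telomere end binding, 0 were called in either direction, with a median of 0.10. Other multicopy genes near the ends, 28 measured, had a median of 0.49, or 0.29 above their class medians. Among the 26 with the minimum mean, 5 were called higher and 2 lower, with related genes counted 1 by 1. Of all genes with that mean, 3.08% were called higher and 1.52% lower, and 12.1% were higher in the lowest abundance class. The sum of the 28 went the other way, with 55120 normalized reads in paraquat and 98162 in untreated cells, a log2 change of -0.83. The 5 higher were AAD15 (3.97-fold) and AAD6 (2.44-fold), of the aryl-alcohol dehydrogenase family, the chaperone-like HSP33 (2.47-fold), and the thiamine synthesis genes THI12 (2.21-fold) and THI5 (2.05-fold). AAD15 and HSP33 were near the minimum mean, with intervals of 2.46 to 6.69 and 1.63 to 3.85. THI11 and THI13, the other THI genes of the list, were 1.46- and 1.06-fold. The 2 lower were the near-identical acid phosphatase genes PHO11, with 1694 normalized reads in paraquat and 12899 in untreated cells, and PHO12, with 7213 in paraquat and 56313 in untreated cells. All of these lists were drawn up with earlier results of these data known.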

How the data were processed

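RNA of 1 paraquat-treated and 1 untreated culture of BY4741 was sequenced. Tools listed in the submitters' processing notes, without roles, were STAR 2.5.2b, Trimmomatic 0.36, DESeq2, featureCounts and Subread 1.5.2. Neither the genome build nor the annotation is given there. The deposited signal values are read counts divided by 1 size factor per library, read from the values: each is a whole multiple of 1 step (0.913 in paraquat, 1.10 in untreated cells) within 0.01 read, and reads were taken from these steps. The log2 fold changes, like each p-value and its adjusted form, were deposited by the authors and rest on 1 library a group. One row without a gene name (0.00675% of paraquat and 0.00449% of untreated reads) was left out.

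Log2 changes are the ratio of the deposited values with no pseudocount. Intervals are exact binomial (Clopper-Pearson). Calls needed a 2-fold change and a mean of 50, and class medians used 10 classes of mean value. On data simulated with counting noise alone over 6142 genes, all of 100 genes at a log2 change of 1.5 were called each way, and 95.8% of 2000 intervals held the true value. Changes were planted only in genes well above the minimum mean, so the recovery does not cover genes near it, such as COS4. Differences between cultures and the assignment of reads to copies were not simulated. Genes were matched by name to RefSeq R64 (5920 rows, all 60 members), used for gene order, sequences and copies (BLAST+ 2.17.0), never for coordinates. Values were computed in Python 3.11.15 with scipy 1.17.1, pandas 2.3.3 and numpy 2.4.6, and plotted with matplotlib 3.10.9.

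Named members were those called, those with the most reads or the highest or lowest change in each family, and all near-identical copies. Others were named with their values. In other lists, up to the 2 highest and 2 lowest were named. The remaining genes of any count given, SIR1, SIR3, SIR4, PDR1, PDR3, YPR196W, THI11, THI13 and neighbouring genes were added after their values were seen. The members and lists were chosen with earlier results of these data known. Alternatives were another scaling, centring, pseudocounts, other minimum means, folds and identities, and other sets of members.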

Additional observations from a re-analysis of the deposited data

How the results depend on the processing

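No paired analysis was possible because each group had 1 library, and for the same reason no replicate could be left out. Under the alternatives tried, 44 values stayed within the counting interval or within 1.5 times a count, and 34 moved further, none to a reversed call. Many of the 44 could hardly move, so the tally is no measure of robustness. The median gene was already near 0 before centring, the family sums were large beside the pseudocounts, and no FLO gene has a copy to leave out. The small YRF1 family change did turn negative under 2 alternatives given below. Scaling by total reads raised every log2 change by 0.26, giving family changes of 0.61 (COS), 0.26 (PAU), 0.32 (YRF1), 0.39 (IMA), 0.85 (MAL), 0.45 (FLO) and 0.85 (HXT). It gave 10 members called higher, against 5.22% of all genes, a share not weighted by abundance class. The log2 changes were then 2.35 (COS12), 1.96 (MAL33) and 1.30 (HXT11). The median of members in place of the sum gave 0.38 (COS), 0.13 (PAU), -0.14 (YRF1), 0.30 (IMA), 0.13 (FLO) and 0.77 (HXT). Leaving out the member with the most reads gave 0.42 (COS), 0.064 (PAU), -0.072 (YRF1), 0.34 (IMA), 0.65 (MAL), 0.15 (FLO) and 0.81 (HXT). Leaving out members with near-identical copies gave 0.32 (COS), 0.019 (IMA) and 0.039 (HXT). The COS change was 0.37 with COS111 left out, and also with only members among the outermost 20 genes, both chosen after the data were seen.

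Members called higher numbered 15 at 1.5-fold, 2 with copies summed and 0 by adjusted p (threshold 0.05) of the authors' deposited table, where 2 members had an unadjusted p under 0.05. Without a minimum mean, 1 member was called lower. At 98% identity 22 members had a copy. Depth limits PAU and YRF1 genes most, down to 10 reads in paraquat and 14 in untreated cells.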
